A study of Homo sapiens with 4 samples.

Results

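The cytosolic ribosomal proteins are the protein subunits of the ribosome that works in the cytoplasm. Their genes were taken from the deposited expression table by symbol: RPL or RPS, a number, at most 1 letter of A, X or L and at most 1 copy suffix, plus RPLP0, RPLP1, RPLP2 and RPSA. This gave 85 of the 19826 gene rows, 53 for the large (60S) subunit and 32 for the small (40S) subunit. FAU, which encodes a subunit protein fused to a ubiquitin-like protein, and RACK1 (GNB2L1), a 40S partner, fall outside that symbol pattern and were kept apart.

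The RNA came from BE(2)C:MYCN-ORF, a line of the human neuroblastoma BE(2)C that carries a MYCN open reading frame, so all groups had that insert, and polyA RNA was sequenced 48 hours after transfection. Each group was transfected with an siRNA, the control siCon or siMYCN against MYCN, and a miRNA mimic, the control miRCon or let-7a. The 4 combinations had 1 library each, so no group had a replicate. What drives the insert's expression, and whether the line is 1 clone, is not stated by the labels.

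A ribosome carries 1 copy of nearly every one of these proteins, and cells tune their synthesis together. Their mRNAs typically begin with a cytosine and a run of pyrimidines, the terminal oligopyrimidine (TOP) start, through which mTOR signalling controls their translation. MYC-family transcription factors are known to drive ribosome production, and MYCN amplification defines an aggressive form of neuroblastoma. Surplus subunits are degraded, and unassembled RPL5 and RPL11, bound to 5S rRNA, can inhibit MDM2 and so stabilise p53.

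Values are natural logs in the deposited table. After back-transformation they summed to between 855811 and 862049 per library and were read as TPM-like levels, that is, per transcript length. Levels of different genes are set side by side on that reading, which was not tested. Depth is unknown. Where levels are given as a pair for an siRNA, the miRCon library comes first and the let-7a library second. MYCN, the siRNA's target, was at 1449 and 1433 with siCon and at 1238 and 1197 with siMYCN (log2 fold change -0.24 ± 0.047, SE, n = 4 libraries, limma with Benjamini-Hochberg adjusted p = 0.0584), a small fall that did not pass the test. The insert and the cells' own gene are not separated in that value, so how far either was knocked down cannot be told from it. All 10 neuroblastoma markers examined passed the filter on low levels, with a sum of 3716 to 6026 per library. MYCN is 1 of these 10, so its insert is part of that sum. The sums were 243 to 293 for 6 fibroblast markers, of which 5 also passed. For 5 epithelial markers, of which 1 passed, the sums were 7.27 to 10.7. The 5 blood markers were each under 1 in all libraries. Mitochondrially encoded transcripts held 31.7% and 32.1% of the total with siCon and 28.4% and 29.3% with siMYCN, which bears on every share of a library given here.

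The start regions of several member genes show the TOP form and where it is missing. The sequences are RefSeq (GRCh38.p14), 30 bases each, with the annotated start as base 16, and capitals mark the unbroken pyrimidine run that contains the start base. The first 5 belong to genes that rose with siMYCN, the next 4 to 4 of the 5 most abundant members, none of which passed that test, and the last is the start of RPS28, in which the E-box word CACGTG lies just upstream of the start.
RPL34, chr4:108620561-108620590, plus strand: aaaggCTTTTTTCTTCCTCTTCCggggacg
RPL37A, chr2:216498829-216498858, plus strand: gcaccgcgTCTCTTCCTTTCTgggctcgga
RPL38, chr17:74203663-74203692, plus strand: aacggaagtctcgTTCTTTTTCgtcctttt
RPS10, chr6:34426055-34426084, minus strand: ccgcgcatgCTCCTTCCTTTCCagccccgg
RPL32, chr3:12841551-12841580, minus strand: gggttacgacccatcagcccttgcgcgcca
RPS16, chr19:39435935-39435964, minus strand: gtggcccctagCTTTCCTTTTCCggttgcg
RPS21, chr20:62387088-62387117, plus strand: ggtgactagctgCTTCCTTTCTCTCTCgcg
RPS12, chr6:132814554-132814583, plus strand: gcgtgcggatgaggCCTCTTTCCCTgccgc
RPLP1, chr15:69452803-69452832, plus strand: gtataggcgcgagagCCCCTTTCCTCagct
RPS28, chr19:8321481-8321510, plus strand: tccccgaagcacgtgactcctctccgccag
RPL32 has no capitals because its annotated start base is not a pyrimidine, and it rose with siMYCN nonetheless. A start with a C followed by pyrimidines to a run of at least 5 was found in 43 of the 68 members with a RefSeq promoter (63.2%), against 5.71% of the 7256 tested genes with one and 4.04% of all 27305 promoters in that table.

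Levels differed far more between members than between libraries. Of the 85, 21 had a mean level of 1000 or more, 38 lay between 100 and 1000, 20 between 10 and 100, and 6 under 10; the median of the means was 328. RPS16, a protein of the 40S head, was highest at a mean of 3861, followed by RPS21 at 2897, RPS12 at 2573, the tunnel-exit protein RPL35 at 2461 and the stalk protein RPLP1 at 2413. These 5 made up 26.1% of the members' summed level.

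**Figure D1:**
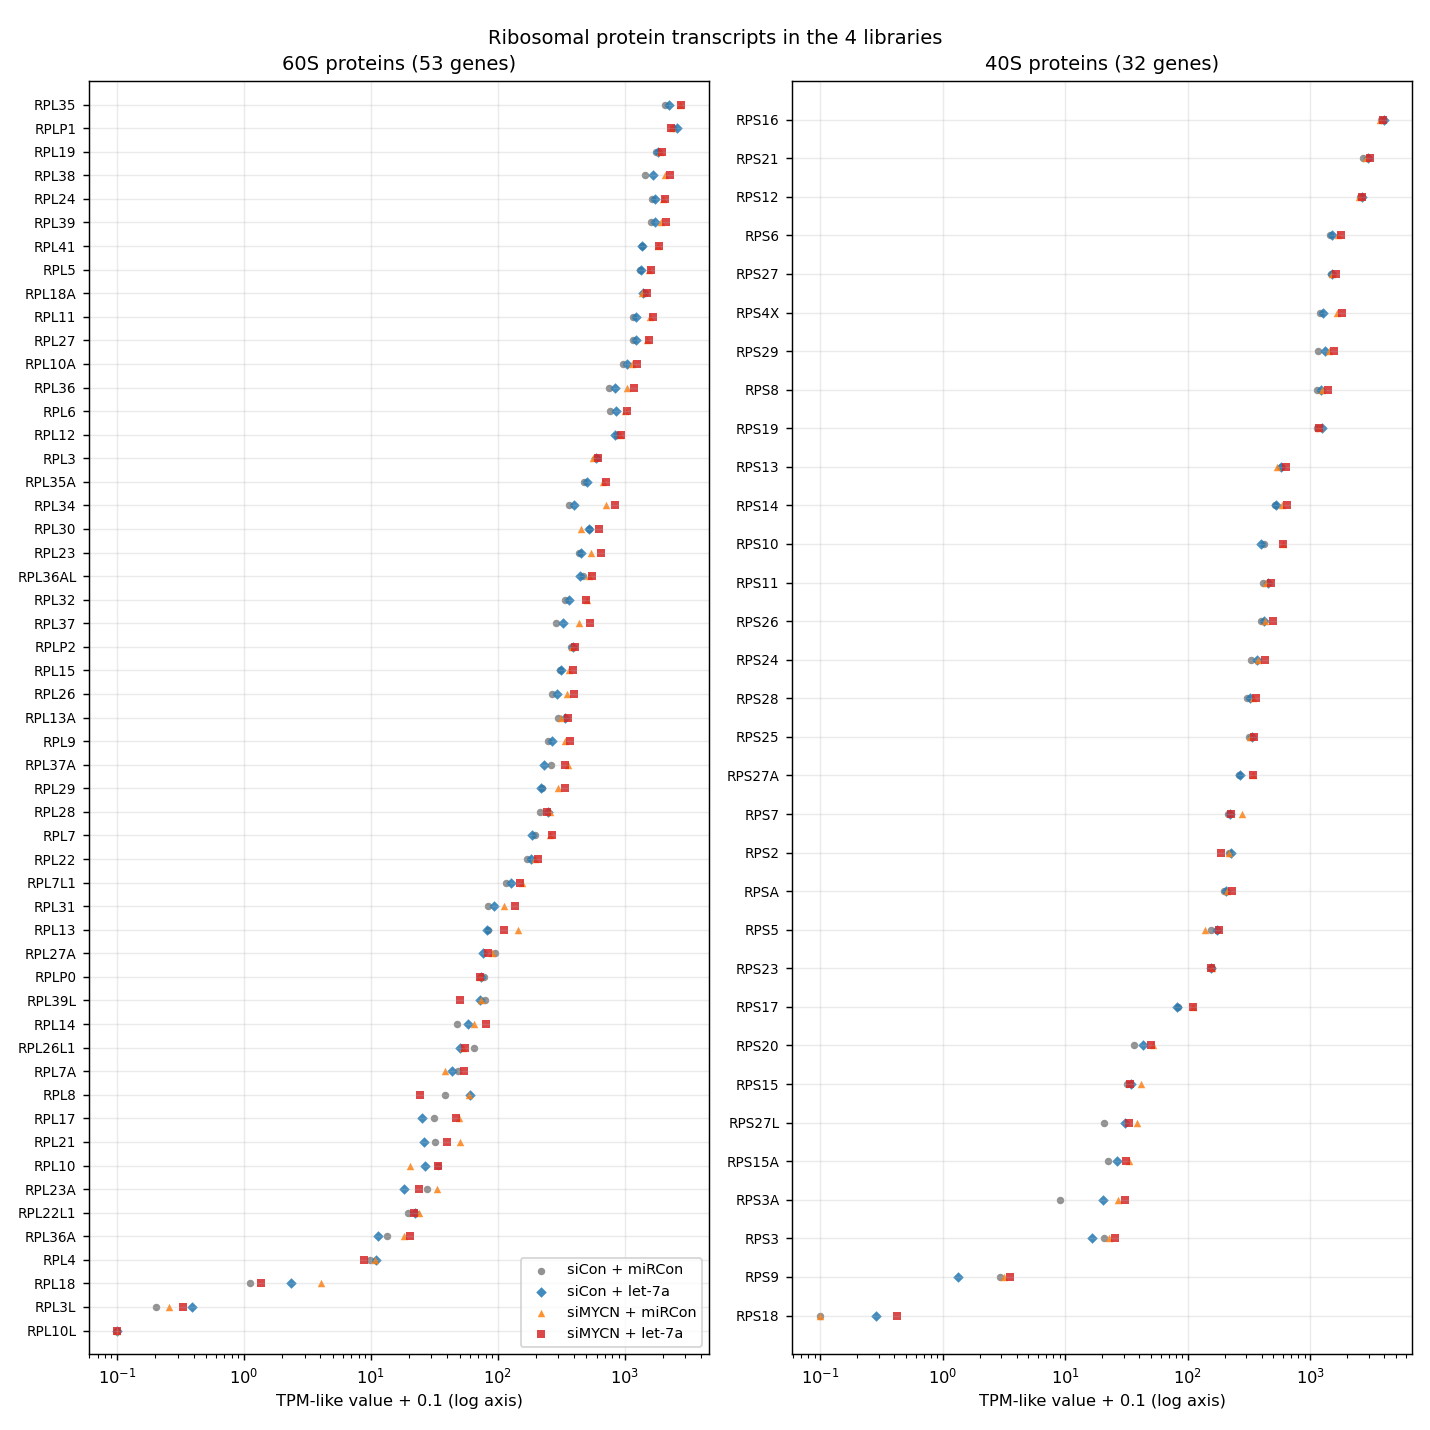
TPM-like level plus 0.1 (log axis) of the 53 60S genes (left) and 32 40S genes (right) in each of the 4 libraries, 1 point per library, ordered by mean level. Levels run from RPS16 at a mean of 3861 to RPL10L at 0, and the 4 points of a gene mostly lie close together beside that range.

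Several subunits that every ribosome needs were listed at levels far under this range. RPS18, a 40S head protein, was listed at 0 in both miRCon libraries and at 0.183 and 0.326 in the let-7a libraries. RPL18, a 60S protein, was listed at 1.02 and 2.25 with siCon and at 3.91 and 1.26 with siMYCN. RPS9, which binds the 40S body, was listed at 2.85 and 1.23 with siCon and at 3.07 and 3.44 with siMYCN. These 3, with the copies RPL3L and RPL10L, fell under the minimum mean of 5 and were not tested, so all tests concern 80 members, which were chosen by mean level over all libraries. RPL4, at a mean of 9.98, was the only tested member under 10. The reason for the low values was not tested. As a description across the 85 genes, which share the same libraries, the mean level was set against annotated properties. Its Spearman rho was 0.026 with the number of pseudogenes of any type named after the gene in GENCODE 29 (1145, for 77 members). It was -0.43 with the number of annotated transcripts and -0.30 with coding length.

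With siMYCN the members as a group were higher. Their summed level was 49030 and 51666 with siCon and 56616 and 60096 with siMYCN. These sums are 5.72% and 5.99% of the siCon totals and 6.62% and 6.99% of the siMYCN totals. The siMYCN library of each pair was the higher one, by 15.5% with miRCon and 16.3% with let-7a, and both siMYCN libraries lay above both siCon libraries. Against the total without mitochondrial transcripts the shares were 8.36% and 8.83% with siCon and 9.24% and 9.90% with siMYCN, and the log2 ratio of the sums with siMYCN was then 0.14 and 0.16 in place of 0.21 and 0.22. In a bulk sample, more RNA of these genes per cell and more cells that express them strongly cannot be told apart.

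**Figure D2:**
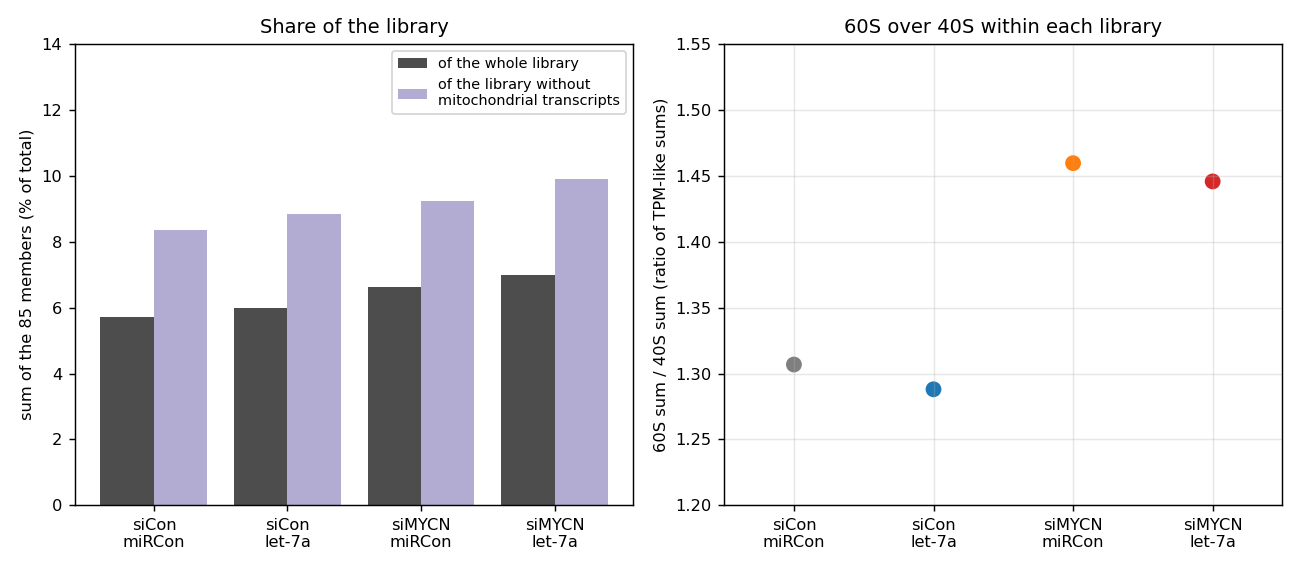
Left, the summed TPM-like level of the 85 genes as a percentage of each library's total, with and without mitochondrial transcripts (1 bar per library, no error because each group has 1 library). Right, the 60S sum divided by the 40S sum within each library; the axis does not start at 0, and both siMYCN libraries (1.46 and 1.45) lie above both siCon libraries (1.31 and 1.29).

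By limma, fitted over 9324 genes on log2(level + 1) with siRNA and mimic as additive terms, 25 of the 80 members tested rose with siMYCN at a Benjamini-Hochberg adjusted p under 0.05 and 0 fell, where 2.07% of all genes tested were called higher and 1.36% lower. With no replicates, error in these p-values is only how far the 4 libraries depart from additive effects. They also rest on the trend of that departure over all genes: without the trend, or with no filter on low levels, 0 genes of any kind passed. At an unadjusted p under 0.05 the fit as described had 46 members higher and 1 lower, against 17% and 9.4% of all genes. Without the trend these were 31 and 0 members, against 15.4% and 8.44%, and with no filter 28 and 0, against 7.6% and 4.77%. In the 6 alternatives that called any gene, 18 of the 25 were called each time; the calls of RPL6, RPL21, RPL23, RPL24, RPL31, RPL39 and RPS27A were lost in at least 1 of them. The counts of direction do not use that model. Higher in both pairs were 59 members, against 43.2% of all genes, and lower in both were 5, against 27.4%. At least 1.2-fold higher in both pairs were 30 members, against 14.4% of all genes, and at least 1.2-fold lower in both were 0, against 7.65%. Both siMYCN libraries lay above both siCon libraries for 52 members, against 35.6% of all genes, and below them for 2, RPLP0 and RPLP1, against 21.1%.

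The median siMYCN effect over the members was a log2 fold change of 0.24 (0.26 with miRCon and 0.25 with let-7a), against 0.056 over all genes tested. Rescaling by median ratios moved the median of all genes to -0.003 and that of the members to 0.18, with 28 members called. Rescaling without mitochondrial transcripts gave 0.000314 and 0.18, with 20 members called, and a pseudocount of 5 left 18 called. The 1147 other genes with a mean of at least 100 had a median of 0.042, with 65 called higher and 28 lower. Their median level was 165, against 338 over the members tested. The 109 of them with a mean of at least 500 had a median of 0.0084, with 14 called higher and 6 lower. At that level 14 of the 32 members were called higher and 0 lower. Among the members, those with a mean of at least 500 (32 genes), of 100 to 500 (27) and under 100 (21) had medians of 0.25, 0.20 and 0.32.

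**Figure D3:**
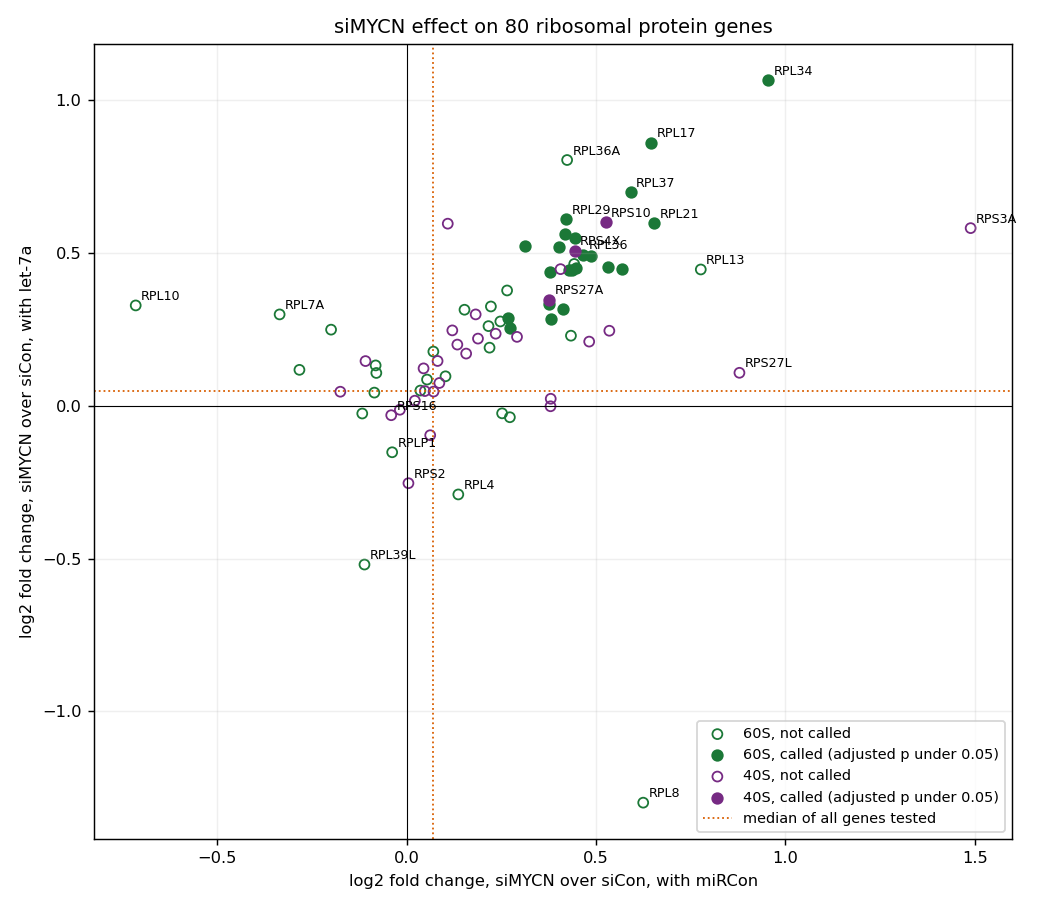
log2 fold change of siMYCN over siCon for the 80 tested members, with miRCon (x axis) and with let-7a (y axis); each point is 1 gene, filled where limma's adjusted p is under 0.05, green for 60S and purple for 40S, and the dotted lines are the medians of all genes tested. The 25 filled points all lie in the upper right, led by RPL34, and RPL8 stands alone at 0.62 and -1.30.

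RPL34, a 60S protein, had the highest effect of the called members. Its level was 365 and 402 with siCon and 709 and 842 with siMYCN. The siMYCN libraries were therefore high and the siCon libraries low, with no overlap, and the log2 fold change was 1.01 ± 0.059 (SE, n = 4 libraries; 2.01-fold; limma adjusted p = 0.0174). Its gene spans chr4:108620566-108630412 (GRCh38, plus strand).

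RPL37, a small zinc-binding 60S protein, was at 289 and 327 with siCon and at 436 and 531 with siMYCN. The groups did not overlap, and the effect was 0.65 ± 0.062 (SE; limma adjusted p = 0.0263). RPL21, a 60S protein, was low throughout, at 31.8 and 26.0 with siCon and at 50.6 and 39.9 with siMYCN, an effect of 0.63 ± 0.11 (adjusted p = 0.0491). The remaining called 60S genes without a role group were RPL6, RPL7, RPL9, RPL23, RPL24, RPL27, RPL29, RPL32, RPL35A, RPL36, RPL37A, RPL38 and RPL41, with effects between 0.26 (RPL24) and 0.52 (RPL29). RPL38, a small 60S protein, was at 1450.0 and 1665 with siCon and at 2095 and 2284 with siMYCN. RPL41, the smallest ribosomal protein, was at 1365 and 1373 with siCon and at 1847 and 1867 with siMYCN. In both genes the mimic moved the level far less than the siRNA did, and siMYCN and siCon libraries did not overlap.

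RPL5 and RPL11, which form the 5S particle, moved alike in value. RPL11 was at 1168 and 1231 with siCon and at 1572 and 1675 with siMYCN, and rose by 0.44 ± 0.046 (SE; limma adjusted p = 0.0286). RPL5 was at 1313 and 1343 with siCon and at 1559 and 1626 with siMYCN, an effect of 0.26 ± 0.046 with an adjusted p of 0.0507, just outside the threshold. Neither gene had overlapping groups, so both members of the particle were highest in the siMYCN libraries.

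Of the 8 proteins around the exit of the tunnel through which the new chain leaves, 5 rose: RPL17, RPL26, RPL31, RPL35 and RPL39. Over all 60S members tested, 22 of 50 rose, and 20 of 36 of those with a mean of at least 100. RPL17 was at 31.0 and 25.1 with siCon and at 49.1 and 46.5 with siMYCN (0.75 ± 0.11, adjusted p = 0.0436). RPL35, the most abundant 60S member, was at 2065 and 2237 with siCon and at 2751 and 2790 with siMYCN (0.37 ± 0.047, adjusted p = 0.0344). The libraries of these genes did not overlap between siCon and siMYCN. RPL19, another abundant tunnel-exit protein, was at 1779 and 1844 with siCon and at 1911 and 1972 with siMYCN, an effect of 0.10 ± 0.044 (adjusted p = 0.222). RPL23A, which helps dock the signal recognition particle, had 0.32 (adjusted p = 0.176) and RPL4, whose loop lines the tunnel, -0.08 (adjusted p = 0.833), at mean levels of 25.7 and 9.98. The median effect of the 8 was 0.34, against 0.30 over all 60S members tested and 0.34 over those with a mean of at least 100.

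The acidic stalk, which recruits elongation factors to the 60S subunit, had effects near 0. RPLP1 was at 2409 and 2576 with siCon and at 2347 and 2319 with siMYCN, an effect of -0.09 ± 0.049 (adjusted p = 0.283). Both siMYCN libraries were thus under both siCon libraries, by a small margin. RPLP0, the base of the stalk, had -0.07 (adjusted p = 0.638) and RPLP2 0.04 (adjusted p = 0.662). None of the 3 passed the test, and RPLP2 turned to -0.02 when the values were rescaled by median ratios.

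Fewer of the 40S members were called. Of 30 tested, 3 rose, RPS10, RPS4X and RPS27A, against 22 of 50 in the 60S subunit, with median effects of 0.19 and 0.30. Among genes with a mean of at least 100, 20 of 36 60S members and 3 of 23 40S members were called, with medians of 0.34 and 0.11. The difference between the subunits was not tested across genes, since genes are not replicates. The ratio of the 60S sum to the 40S sum, which no scaling of a library can change, was 1.31 and 1.29 with siCon and 1.46 and 1.45 with siMYCN. The ratio was higher in each siMYCN library than in either siCon library, and with no replicates it was not tested. It is weighted to the most abundant genes. The mean of log2(level + 1) over the tested 60S genes minus that over the tested 40S genes, in which each gene counts alike, was -0.190 and -0.292 with siCon and -0.173 and -0.193 with siMYCN, and there the siRNA groups overlapped.

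RPS10, a protein of the 40S head, was at 418 and 394 with siCon and at 602 and 599 with siMYCN, a rise of 0.56 ± 0.057 (SE; limma adjusted p = 0.0278). RPS10-NUDT3, a readthrough transcript that overlaps it and has its own row, went the other way in value, at 39.5 and 28.1 with siCon and at 12.8 and 19.7 with siMYCN. Whether reads were divided differently between these rows was not tested. RPS4X, a 40S protein encoded on the X chromosome, was at 1210.0 and 1268 with siCon and at 1647 and 1803 with siMYCN (0.48 ± 0.048, adjusted p = 0.0278). RPS27A, made as a fusion with ubiquitin, was at 262 and 269 with siCon and at 341 and 343 with siMYCN (0.36 ± 0.060, adjusted p = 0.0483). All 3 called 40S genes were higher in both siMYCN libraries than in either siCon library.

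The most abundant 40S members stayed close to their siCon values. RPS16 was at 3803 and 4014 with siCon and at 3698 and 3930 with siMYCN (-0.04 ± 0.040, adjusted p = 0.613). RPS12 was at 2527 and 2646 with siCon and at 2496 and 2622 with siMYCN, and RPS21 at 2704 and 2972 with siCon and at 2841 and 3070 with siMYCN. In these 3 genes the libraries of the siRNAs interleaved, so the siRNA difference was smaller than the difference between mimics. RPS6, the substrate of the S6 kinases, was at 1440 and 1507 with siCon and at 1696 and 1775 with siMYCN, an effect of 0.24 ± 0.045 (adjusted p = 0.0581) with no overlap.

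Of 5 proteins at the mRNA channel and head of the 40S subunit (RPS2, RPS3, RPS15, RPS26 and RPS28), 0 were called and the median was 0.18. Over all 40S members tested, 3 of 30 were called and the median was 0.19. RPSA, the laminin-receptor protein of the 40S subunit, had 0.11 (adjusted p = 0.328), RPL3, which sits near the peptidyl transferase centre, -0.02 (adjusted p = 0.854), and RPL13A, also known for a role in silencing translation after interferon, 0.07 (adjusted p = 0.494). RPS3A, a 40S protein on the platform side, had the highest effect of all members tested, 1.04 ± 0.24, but did not pass (adjusted p = 0.0722). Its levels were 8.91 and 20.1 with siCon and 26.8 and 30.6 with siMYCN, so the siCon libraries differed from each other by more than the siMYCN libraries did.

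RPL8, RPL10 and RPL7A had siMYCN effects of opposite direction with the mimics. RPL8, a 60S protein near the catalytic centre, was at 38.1 and 60.7 with siCon and at 59.2 and 24.1 with siMYCN. RPL10, which completes the 60S subunit late in assembly, was at 33.8 and 26.4 with siCon and at 20.2 and 33.4 with siMYCN. RPL7A, a 60S protein, was at 48.1 and 43.7 with siCon and at 37.9 and 54.0 with siMYCN. All 3 lay under 100, where the median size of the difference between the siMYCN pairs over members was 0.38, against 0.075 for members with a mean of at least 100. Across the 80 members, which share the same 4 libraries, the siMYCN effects of the pairs had a Spearman rho of 0.64 and a Pearson r of 0.41, given as a description. Over all genes tested both were 0.53.

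Of the 85 rows, 8 are copies or paralogs of another member, and 6 of these were tested with 0 called. Over all genes tested, 2.07% were called higher and 1.36% lower, so 0 of 6 does not set the copies apart. Their median siMYCN effect was 0.18. At limma's unadjusted p under 0.05, 2 were higher and 1 lower, against 17% and 9.4% of all genes. RPL39L, known as a testis-enriched paralog of RPL39 and 94.8% identical to it in coding sequence, was at 79.7 and 72.7 with siCon and at 73.7 and 50.4 with siMYCN (-0.32 ± 0.12, adjusted p = 0.188), whereas RPL39 was at 1621 and 1724 with siCon and at 1951 and 2107 with siMYCN (0.28 ± 0.044, adjusted p = 0.0460). The lowest value of the copy fell in the library in which its parent was highest. RPL36AL, a retrocopy that carries a full subunit protein, was at 467 and 446 with siCon and at 519 and 555 with siMYCN, well above its parent RPL36A, at 13.2 and 11.2 with siCon and at 18.1 and 20.3 with siMYCN. RPS27L, a paralog known as a p53 target, was at 20.4 and 30.5 with siCon and at 38.4 and 33.0 with siMYCN (0.49 ± 0.20, adjusted p = 0.198). RPL10L was listed at 0 in all libraries and RPL3L, known from muscle, at 0.103 to 0.288. Reads of close copies such as RPL39L can be divided in ways that gene-level values do not show. The coding identity to the parent was lower for the others, from 89.3% for RPL10L to 55.2% for RPL7L1. Of the 85 members, 36 also overlap another protein-coding gene.

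Members with less GC in their annotated transcript had higher siMYCN effects. The transcript with the longest coding sequence was used for each gene, and which form these cells made is not known. For RPL37 that form has 7686 bases, of which 291 are coding. Across the 80 tested members the Spearman rho of effect and GC content was -0.45, and it was -0.35 over the 60S members (n = 50) and -0.68 over the 40S members (n = 30). Over the 8858 other tested genes with a GENCODE transcript it was -0.041, and over the 1106 of them with a mean of at least 100 it was -0.037. The 46 members with a GC content under 50% had a median effect of 0.36, with 21 called, and the 34 others had 0.090, with 4 called (RPL29, RPL32, RPL35 and RPL36). Of the other tested genes, 73 of 4800 under 50% were called higher, with a median of 0.062. At 50% or over, 87 of 4058 were called higher, with a median of 0.046. These points share libraries, and the relation is a description; what part GC content has in the calls was not tested.

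**Figure D4:**
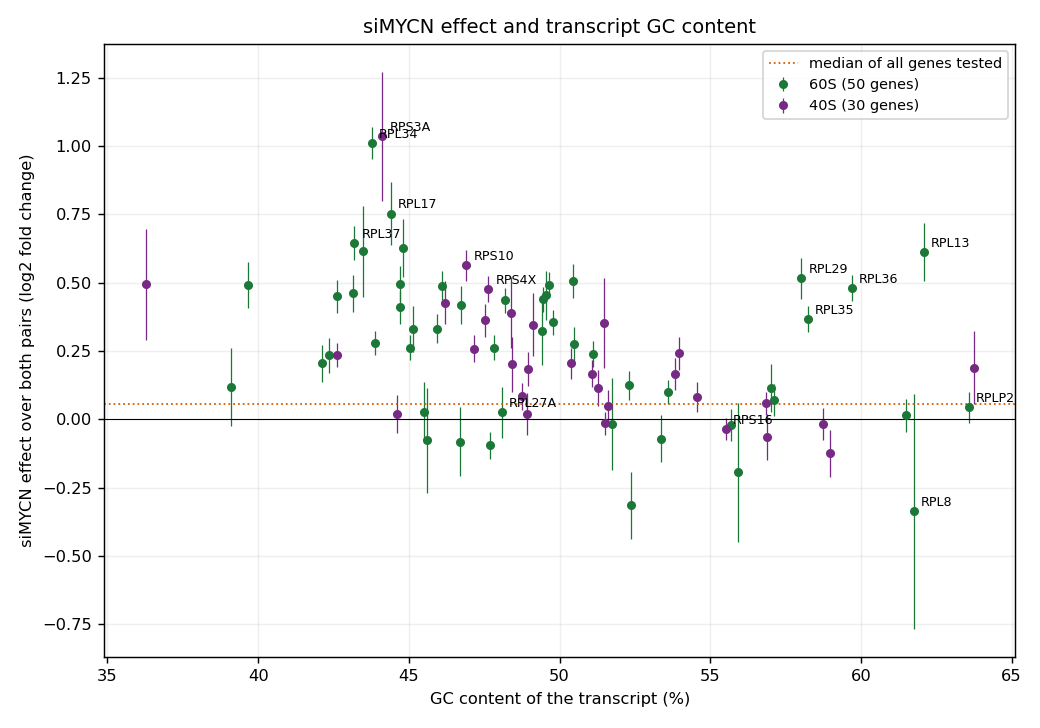
siMYCN effect (log2 fold change over both pairs, with bars for limma's SE, n = 4 libraries) against the GC content of the annotated transcript for the 80 tested members; the dotted line is the median of all genes tested. Members with a GC content under 50% had a median of 0.36 and the others of 0.090.

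The siMYCN effects by start sequence were close to each other. Those with a TOP start had a median siMYCN effect of 0.22, with 14 of 40 called, and those with another start 0.27, with 8 of 24 called. Over all genes tested, 2.07% were called higher. Calls among other genes with a TOP start were not counted. CACGTG, which reads the same on both strands, was found between 250 bases before and 50 bases after the start in 4 of 68 members (5.88%: RPL19, RPS28, RPL13A and RPL7L1), against 10.7% of tested genes and 7.43% of all promoters. Of these 4, 0 were called, with a median of 0.13, and among the 60 tested members without the word 22 were called, with a median of 0.25. The first start listed by RefSeq was used for each gene, and the start used in these cells is not known.

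The let-7a mimic went with small differences. The members' sum was 5.38% higher with let-7a in the siCon pair and 6.15% higher in the siMYCN pair, and the median effect was 0.068 (0.072 in each pair) against -0.031 over all genes. By limma 0 members were called higher and 0 lower, as in all genes (0% and 0%), with a smallest adjusted p of 0.663; at an unadjusted p under 0.05 there were 14 higher and 3 lower, against 2.77% and 4.71% of all genes. Higher in both pairs were 44 members, against 22.6% of all genes, and lower in both were 9, against 33.5%. At least 1.2-fold higher in both pairs was 1 member, RPL14, against 2.34% of all genes, and at least 1.2-fold lower were 2, RPL21 and RPL23A, against 3.55%. Across members the let-7a effects of the pairs had a Spearman rho of 0.12 and a Pearson r of -0.088, as a description. Over all genes tested these were 0.13 and 0.11. Of the members, 27 differed in sign between the let-7a pairs, against 16 for siMYCN. Over all genes, 22.6% were higher and 33.5% lower in both let-7a pairs, against 43.2% and 27.4% for siMYCN. Differences in sign were thus more frequent with let-7a there too.

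**Figure D5:**
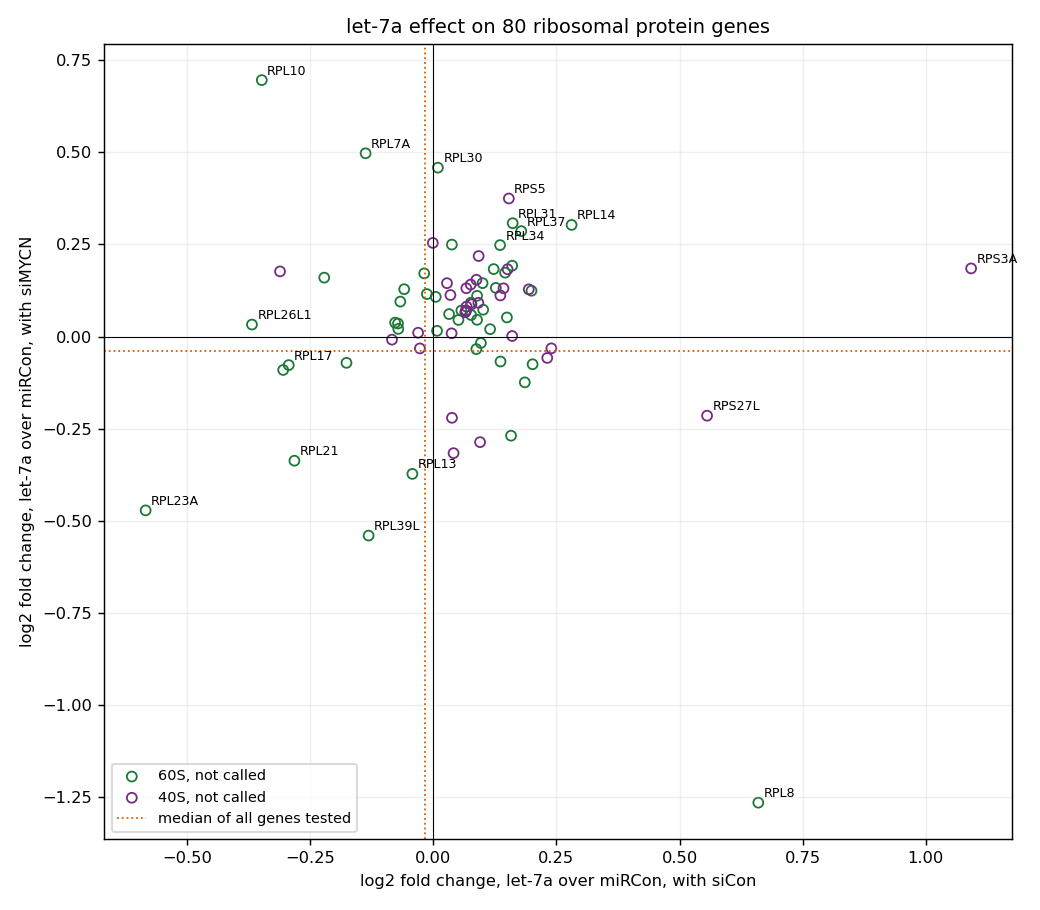
log2 fold change of let-7a over miRCon for the 80 tested members, with siCon (x axis) and with siMYCN (y axis); each point is 1 gene, green for 60S and purple for 40S, and the dotted lines are the medians of all genes tested. No point is filled because 0 members passed limma's test; RPL23A lies at -0.58 and -0.47, RPL14 at 0.28 and 0.30, and RPL8 at 0.66 and -1.26.

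A let-7 site in the longest annotated 3′ UTR (GENCODE 29) was found in 9 of the 85 members (10.6%), against 19.0% of the 8915 tested genes with a 3′ UTR. The mature let-7a sequence, from RefSeq, is shown with its seed, bases 2 to 8, in capitals, beside the sites of the 3 members with a full match of 8 bases and that of RPL23A, the member with the lowest let-7a effect over both pairs. In the sites, capitals mark the bases that match: CTACCTCA, or TACCTCA for RPL23A.
let-7a: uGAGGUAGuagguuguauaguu
RPL34 site: ttggtgtgctggagCTACCTCA
RPL14 site: caattcttactaatCTACCTCA
RPS29 site: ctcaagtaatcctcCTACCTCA
RPL23A site: ttatccttttgaaaTACCTCA
The site of RPL34 starts at base 71 of a 3′ UTR of 433 bases, whereas those of RPL14 and RPS29 lie at bases 5464 and 2055 of annotated forms of 6355 and 6828 bases, and which form these cells made is not known.

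The 3 members with the full match were higher, not lower, with the mimic in value. RPL34 went from 365 to 402 with siCon and from 709 to 842 with siMYCN, log2 fold changes of 0.14 and 0.25. RPL14, a 60S protein, went from 47.3 to 57.6 and from 64.6 to 79.9, or 0.28 and 0.30. RPS29, a zinc-binding 40S protein, went from 1156 to 1322 and from 1415 to 1546, or 0.19 and 0.13. In each pair the let-7a library was the higher one. RPL23A was the only member with a site that was at least 1.2-fold lower in both pairs, going from 27.6 to 18.1 and from 33.3 to 23.8, or -0.58 and -0.47 (-0.53 ± 0.12 over both, limma adjusted p = 0.663). Of the 9 members with a site, 5 were higher in both let-7a pairs and 3 were lower in both. Their median let-7a effect was 0.13, with quartiles of -0.12 and 0.16. Of the 71 tested members without one, 39 were higher in both and 6 lower, with a median of 0.068. RPL21, which has no such site, was lower at -0.28 and -0.34.

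The treatments together gave the members' highest levels. Of the 80, 39 were highest in siMYCN with let-7a and lowest in siCon with miRCon, against 12.5% of all genes. Comparing these libraries alone, 45 members were at least 1.2-fold higher with both, against 24.5% of all genes, and 2 were at least 1.2-fold lower, RPL8 and RPL39L, against 20.2%. The median log2 ratio was 0.31, against 0.028 over all genes. The median difference between the siMYCN effects with let-7a and with miRCon was 0.019.

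Other genes of translation were counted by list, each beside the all-gene median of 0.056. Over all genes tested, 2.07% were called higher with siMYCN and 1.36% lower. Outside the symbol pattern, FAU had a siMYCN effect of 0.23 (limma adjusted p = 0.156) and GNB2L1 0.24 (adjusted p = 0.189), and neither passed. Among 8 elongation factors and partners, EEF1G, a subunit of the complex that recharges EEF1A, rose from 889.9 and 952 with siCon to 1172 and 1255 with siMYCN (0.40 ± 0.048, adjusted p = 0.0325). EEF2, the translocase, was at 2338 and 2478 with siCon and at 2789 and 2913 with siMYCN (0.24, adjusted p = 0.0502). EEF1A1 had -0.01 and EEF1B2 -0.19, and neither passed. EEF1G and EEF2 were highest in the siMYCN libraries, while the median of the 8 was 0.12.

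Of 31 initiation factors tested, EIF3B, a core subunit of EIF3, was the 1 that rose (0.39, limma adjusted p = 0.0437) and 0 fell. The all-gene shares were 2.07% higher and 1.36% lower. The median of these factors was 0.026. In a list of 15 tested genes of TOR and S6 kinase control, EIF4EBP2, a repressor of cap-dependent initiation, fell from 90.1 and 82.5 with siCon to 56.0 and 51.5 with siMYCN (-0.67, adjusted p = 0.0344), and RPS6KA2, of the ribosomal S6 kinase family, fell from 38.2 and 41.4 to 20.4 and 17.2 (-1.05, adjusted p = 0.0355). These 2 genes had no overlap between the siRNAs, and the list's median was -0.05. EIF4EBP1, of the same family as EIF4EBP2 and more abundant, was at 258 and 238 with siCon and at 288 and 246 with siMYCN. Its effect was 0.10 (limma adjusted p = 0.377). Of 7 dedicated chaperones of ribosomal proteins, GRWD1, the escort of RPL3, rose from 26.1 and 24.4 to 47.6 and 54.4 (0.98 ± 0.12, adjusted p = 0.0344), although RPL3 itself was at -0.02. The 73 tested mitochondrial ribosomal protein genes had 0 called in either direction by limma, with 7 higher and 4 lower at an unadjusted p under 0.05 (17% and 9.4% of all genes), and a median of 0.039. Nuclear subunits of oxidative phosphorylation had 1 called, higher, of 68, with a median of 0.012, and the 13 mitochondrial transcripts had 1 called, lower, with a median of -0.14.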

How the data were processed

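PolyA RNA of 4 libraries, 1 per group by the labels, was analysed at gene level. The authors deposited natural log values per gene, the base being settled from the library totals. HISAT 0.1.6, Salmon 0.3.2 and GRCh38 are named, with no role or order, per the submitters' processing notes (the annotation, any filter and the reason for the log scale: not given in the sources used here). Of 19837 rows, 11 vector rows were set apart and 28 rows carry names turned into dates. Values were back-transformed as exp(x) - 1. They keep no depth, so no counting error is given.

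Genes with a mean of at least 5 (9324) were tested with limma-trend (limma 3.58.1, R 4.3.3) on log2(value + 1), which understates changes of low genes, with siRNA and mimic as additive terms, 1 residual and 4.30 prior degrees of freedom, and Benjamini-Hochberg adjustment over all 9324; the test was checked on simulated data. Fold changes per pair have no test. Nothing says that libraries came from separate cultures. Python 3.11.15, pandas 2.3.3, NumPy 2.4.6, Biopython 1.88 and matplotlib 3.10.9 were used. Coordinates, GC content, coding lengths and 3′ UTRs came from GENCODE 29 (all 85 members matched), promoters and let-7a from RefSeq, GRCh38.p14 (68 members matched).

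Members, role groups and lists were chosen with earlier results of these data known. Named genes were the role groups and copies; the 6 highest and 6 lowest members per treatment by the smaller of the pairs' effects; the 5 highest and 5 lowest differences between pairs and levels; all called members; and up to 4 genes of each other list. GNB2L1 is the table's symbol for RACK1. Some genes that this rule names are left out of the text. Of 5 glial markers, the summed level was 8.74 to 16.3. As alternatives, the pseudocount was set to 0.1 and 5, the minimum mean was dropped or raised to 20, values were rescaled by median ratios or without mitochondrial transcripts, limma was run without trend or with robust variance, and folds of 1.1 and 1.5 replaced 1.2.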

Additional observations from a re-analysis of the deposited data

Results flagged for a closer look

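Among the 80 members tested, 3 stood out because the effect of a treatment had opposite directions in its pairs, each at least 1.2-fold; the difference has no test beyond these single libraries and was not tested. The log2 fold change of RPL8 with siMYCN was 0.62 with miRCon and -1.30 with let-7a, a difference of -1.92. Its let-7a effect was 0.66 with siCon and -1.26 with siMYCN, which is the same difference of -1.92, since both are made from the same 4 levels. RPL10 had siMYCN effects of -0.71 and 0.33 and let-7a effects of -0.35 and 0.70, a difference of 1.04 in each case. RPL7A had siMYCN effects of -0.33 and 0.30, a difference of 0.63.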

How the results depend on the processing

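No paired analysis was possible because the labels give no replicate numbers to pair by, with 1 library in each group; the mimic is a term of the siMYCN fit, and each pair alone gave a median siMYCN effect of 0.26 and 0.25. Leaving out a library leaves the additive fit without a residual degree of freedom. Of the 25 members called higher with siMYCN, 18 were called in all 6 alternatives that called any gene, and 0 were called with no filter on low values or with limma without trend. With a fold of 1.5 in place of 1.2, 4 members were higher in both siMYCN pairs. Rescaling by median ratios gave a median siMYCN effect of 0.18 and a median let-7a effect of 0.10, and rescaling without mitochondrial transcripts 0.18 and 0.077. The log2 ratios of the members' sums under these scalings were 0.14 and 0.14 for siMYCN with miRCon and 0.17 and 0.16 for siMYCN with let-7a. Median ratios gave 0.10 for let-7a with siCon and 0.13 for let-7a with siMYCN, where the total without mitochondrial transcripts gave 0.099 for the latter and 0.24 for both treatments against neither. The median difference between the siMYCN effects was 0.036 with median ratios. Members at least 1.2-fold higher in both let-7a pairs numbered 0 with a pseudocount of 5 (8 at 1.1-fold, 0 at 1.5-fold), and members lower in both numbered 1 with a pseudocount of 5, 1 with median ratios and 0 at 1.5-fold. The cause of these shifts was not tested, other than a higher or lower fold admitting fewer or more genes.

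Effects near 0 changed sign with scaling. With median ratios the siMYCN effect was -0.018 for RPLP2, -0.036 for RPL27A, -0.037 for RPL30 and -0.00288 for RPS21, and the let-7a effect was 0.00878 for RPLP0, 0.014 for RPL7 and 0.00135 for RPL36A. Without mitochondrial transcripts the siMYCN effect was -0.015 for RPLP2, -0.032 for RPL27A and -0.033 for RPL30. Over all genes, siMYCN calls were 193 higher and 127 lower, 343 and 408 with median ratios, and 203 and 263 without mitochondrial transcripts. Depth is unknown, so what counting error adds at low levels could not be given.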
